A study of Mus musculus with 3 samples.

Results

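Cluster 5 held 186 of the 1879 nuclei for which the deposited table gave a cluster number. It was taken as labelled there: all nuclei with that number, which made 10 of the 153 nuclei of E12.5, 166 of the 970 of E13.5 and 10 of the 756 of E15.5. The embryos were untreated wild-type mice of the strain C57BL/6JRj, taken at embryonic day E12.5, E13.5 or E15.5, with 1 library per stage. Nuclei were released from frozen sections of littermates of the embryos used for the study's spatial maps, stained with the DNA dye 7-AAD and sorted before droplet barcoding, so any cell type of the sections could be present and mature red cells, which lack a nucleus in the mouse adult, could not be. The measurement was single-nucleus ATAC-seq, in which the transposase Tn5 cuts accessible DNA and each unique fragment carries the barcode of its nucleus. The comparison was made with clusters 0, 1, 3 and 6 to 10, which are not erythroid and hold 72, 608 and 541 nuclei in stage order. Clusters 2, 4 and 11 were in neither group, and clusters 2 and 4 were not analysed here. With 1 library a stage, stages cannot be tested against each other, and all intervals below are 95% intervals that cover counting error only.

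Red cells arise in waves during mouse development. Primitive erythroblasts form in the yolk sac, enter the blood with their nuclei and use embryonic globins, while definitive erythroblasts mature in the fetal liver, use adult globins and expel their nuclei. The program is run by the transcription factors Gata1, Tal1 and Klf1 with the adaptor Lmo2, which bind distal elements and promoters of the genes for globin, heme and the red cell membrane. Accessible chromatin at a gene marks where such factors and the transcription machinery can bind, and is not itself a measure of RNA.

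Some nuclei of the cluster stood apart. At E12.5, 2 of its 10 nuclei shared 48.9% of identical fragments, which marks them as linked barcodes. No linked nucleus of cluster 5 was found at E13.5 or E15.5, and 1 of its barcode sequences also occurred in another library. The deepest nucleus held 35.2% of the cluster's fragments at E12.5 and 41.6% at E15.5, against 2.43% at E13.5. Its share of fragments in the erythroid genes was 0.988% and 0.945% of gene fragments, within the range of the comparison nuclei, which reached 1.19% and 1.12%. At E13.5, 3 nuclei carried 1964, 2205 and 2552 fragments over the neuron markers per 1000000 gene fragments, where the comparison clusters summed to 477, and 1 nucleus carried 1408 over the mesenchyme markers with an erythroid share of 0.749%. The part of these 4 nuclei in the results was not tested. No doublet caller was run here, and doublets were not removed.

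All 6 erythroid markers were higher in cluster 5 than in the comparison clusters in each library. Accessibility of a gene is given here as the number of fragments over its body and the 2 kb upstream per 1000000 gene fragments (CPM), and a fold is the CPM of cluster 5 divided by that of the comparison clusters in the same library. Gata1, the master regulator of the lineage, stood at 51.4, 82.1 and 84.6 CPM in the order of the stages, against 10.8, 5.57 and 5.52 CPM in the comparison clusters. Alas2, the erythroid enzyme of the first step of heme synthesis, stood at 43.7, 55.4 and 102 CPM against 13.7, 8.27 and 6.90. Hbb-bt, an adult beta globin, stood at 23.1, 30.5 and 45.1 CPM against 0.722, 1.23 and 0.311, on only 9, 263 and 16 fragments in cluster 5. All 3 were higher in cluster 5 in every library, and their folds were 14.7 for Gata1 (12.4 to 17.5), 6.70 for Alas2 (5.73 to 7.84) and 24.7 for Hbb-bt (17.5 to 35.9) at E13.5. Tal1, a factor that works in a complex with Gata1, reached folds of 4.12, 4.84 and 6.85. Klf1, an activator of the adult beta globin gene, reached 3.56, 3.77 and 6.56, and Sptb, the beta spectrin of the membrane skeleton, reached 3.23, 3.16 and 2.93. The deposited clusters were made from these same nuclei, so these folds describe the cluster and do not test it.

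Leaving out the nuclei that stand apart moved single folds. With 1 of the linked pair kept, Gata1 had an E12.5 fold of 5.14 in place of 4.75. Without the deepest nucleus of each library the E15.5 fold of Gata1 was 20.5 in place of 15.3, that of Alas2 20.8 in place of 14.7 and that of Slc4a1 20.1 in place of 13.7, and the E15.5 over E12.5 ratio of Tal1 was 3.22 in place of 1.91.

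**Figure D1:**
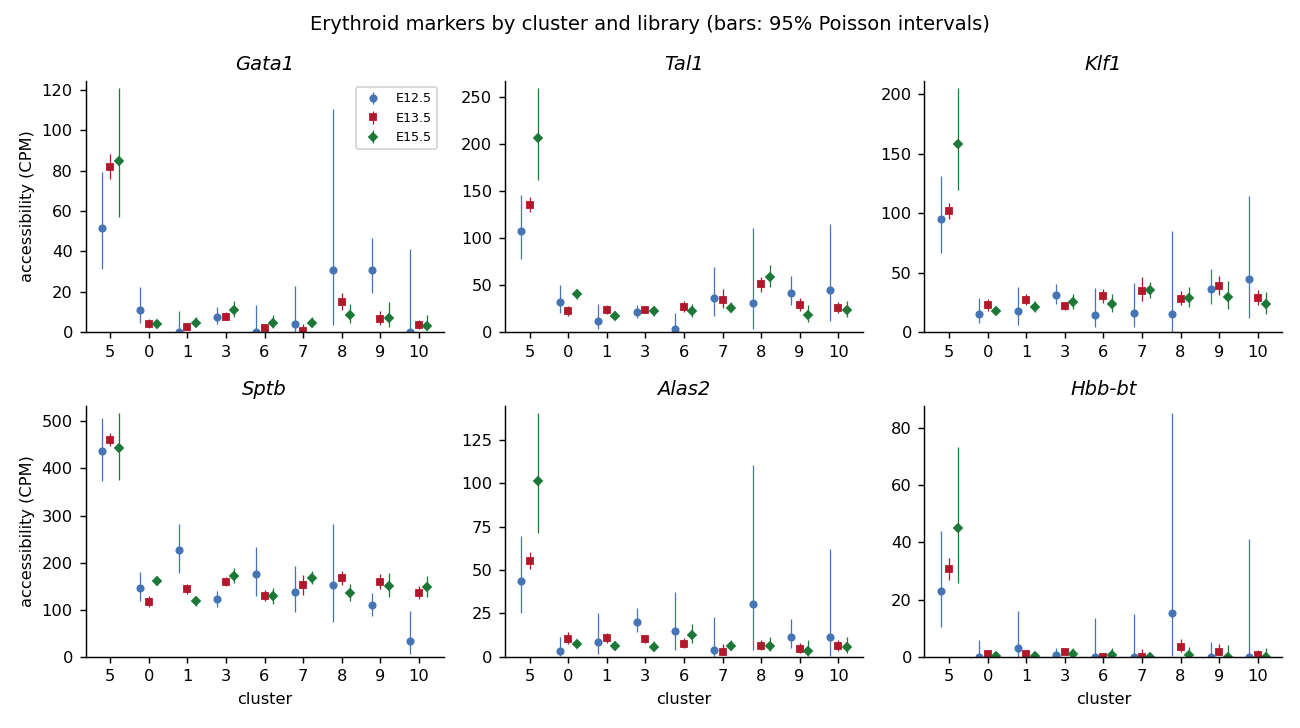
Accessibility in CPM (y axis) of the 6 erythroid markers in cluster 5 and in each comparison cluster (x axis), with 1 symbol per library and bars for the exact Poisson 95% interval of the summed fragments. Cluster 5 stood above every comparison cluster at E13.5 for all 6 genes, and the wide bars of E12.5 belong to clusters with few nuclei there.

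The same held nucleus by nucleus at E13.5 only in part. A Gata1 fragment was found in 134 of 166 cluster 5 nuclei (80.7%) and in 86 of 608 comparison nuclei (14.1%), which had nearly the same median depth (46795.5 and 47087 gene fragments). After each nucleus was thinned to 10000 gene fragments, which left out 13 and 10 shallower nuclei, the shares were 46.4% and 4.35%. Hbb-bt gave 66.9% against 4.77% before thinning and 28.8% against 0.836% after it. Sptb, a long gene, was hit in 95.8% of cluster 5 nuclei but also in 87.8% of comparison nuclei, so a single fragment in it does not mark an erythroid nucleus.

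Over all genes, 411 of 18238 tested were at least 2-fold higher in cluster 5 in each of the 3 libraries (2.25%, below called raised) and 609 were at least 2-fold lower in each (3.34%, called lowered). At E13.5 alone, the only library with depth for this cluster (8625628 gene fragments, against 389209 and 354431), 5.07% were at least 2-fold higher and 11.4% at least 2-fold lower. The median fold over all genes tested was 0.993, 0.996 and 0.959 in stage order. Of 121 genes sought in 8 lists of erythroid function, 119 were measured and passed the filter on low counts, since Ahsp and Sox6 were not among the genes kept. Of these 119, 60 were raised (50.4%), 1 was lowered and 77 were at least 2-fold higher at E13.5 (64.7%).

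**Figure D2:**
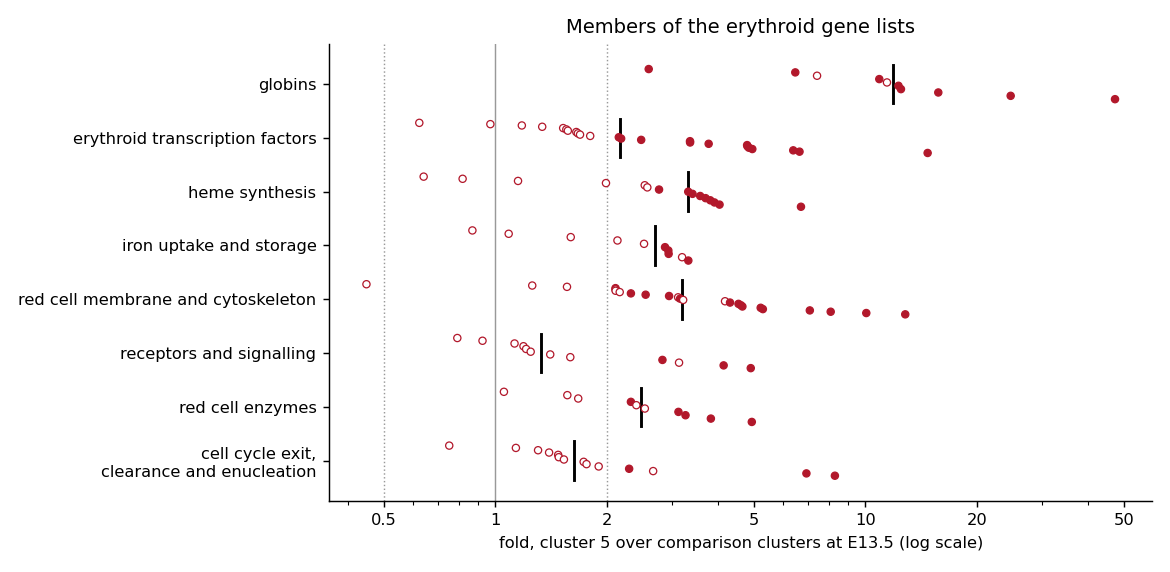
Fold of cluster 5 over the comparison clusters at E13.5 (x axis, log scale) for every tested member of the 8 erythroid lists (y axis). Each circle is a gene, filled where the fold was at least 2 in all 3 libraries, the black bar is the list's median, and the lines mark folds of 0.5, 1 and 2. Globins lie farthest to the right, with a median of 11.9, and receptors and signalling genes lie closest to 1, with a median of 1.33.

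Of 24 transcription factors, 13 were raised and none was lowered, with median folds of 2.57, 2.17 and 2.77, and 7 were raised when only the promoter was counted (1000 bp before to 100 bp after the start). Promoters here and below were set at the outer end of each gene's annotated span, so other transcript starts were missed. The share raised and the median over all promoters are not given beside the promoter values. Besides Gata1, Tal1 and Klf1, the 13 factors raised over the whole gene included Lmo2, which bridges Gata1 and Tal1 (108, 139 and 181 CPM, folds of 3.62, 4.95 and 6.64). Lyl1, a close relative of Tal1, stood at folds between 3.597 and 5.14, and its counted span overlaps Trmt1 and Nfix. Nfe2, Gfi1b and Ikzf1 were raised as well, at 6.64, 6.38 and 4.79 at E13.5. The lowest of the list at E13.5 was Gata2, which acts before Gata1 in blood progenitors, at 23.1, 26.4 and 62.1 CPM and folds of 0.451, 0.623 and 1.48. Without the deepest cluster 5 nucleus the E15.5 fold of Gata2 was 0.415, so the value above 1 rested on that nucleus. Ldb1, the partner that joins distant elements to promoters, was at 1.21, 0.969 and 1.30.

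Of 15 genes of heme synthesis and its transport, 9 were raised, with median folds of 2.32, 3.32 and 3.65. Cpox and Fech, enzymes of late steps of the pathway, stood at 157, 147 and 124 CPM and at 190, 172 and 223 CPM, with folds of 3.998, 4.04 and 3.65 and of 3.89, 3.41 and 4.44. Tmem14c, which carries a porphyrin intermediate into the mitochondrion, had folds of 3.19, 3.58 and 5.30. Alas1, the form of the first enzyme used outside red cells, was at 1.10, 0.816 and 0.616, in contrast to Alas2. Hmox1, which breaks heme down, had 1, 107 and 4 fragments and folds of 0.124, 0.640 and 0.578. The list's median at E13.5 was 1.70 when only the promoter was counted in place of 3.32, and 2 members were then raised.

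Of 10 genes of iron uptake and storage, 4 were raised: Slc25a37, the mitochondrial iron importer, Slc11a2, the endosomal iron transporter, and the transferrin receptors Tfrc and Tfr2. Their E13.5 folds were 3.32 (2.89 to 3.83), 2.94 (2.75 to 3.14), 2.88 (2.65 to 3.12) and 2.93 (2.67 to 3.23). The sensors of cellular iron, Aco1 and Ireb2, stood at 0.867 and 1.09. For the promoter alone 6 of the 10 members passed the count filter, with an E13.5 median of 1.59 where the same 6 had 2.24 over the whole gene, and 1 was raised in place of 2. The Slc25a37 promoter, set at the outer end of its annotated span, held 0 fragments in cluster 5 in each library and 0 CPM in the comparison clusters.

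Membrane and cytoskeleton genes held the largest number of raised members, 15 of 24, with median folds of 2.59, 3.19 and 3.57. Gypc, a glycophorin, stood at 208, 215 and 322 CPM against 34.4, 41.2 and 39.2. Slc4a1, the anion exchanger band 3, stood at 141, 183 and 226 CPM against 30.8, 22.7 and 16.5. Kel, a blood group metalloprotease, stood at 28.3, 79.5 and 110 CPM against 8.42, 6.204 and 5.47. Their folds were 6.05, 5.21 and 8.20 for Gypc, 4.59, 8.06 and 13.7 for Slc4a1 and 3.36, 12.8 and 20.1 for Kel. Epb42 and Rhag, a band 3 partner and the Rh-associated ammonium channel, had lower folds at later stages, 10.5, 7.08 and 4.09 and 8.08, 4.61 and 4.08. At the promoter alone the folds of Rhag went the other way, 21.2, 26.4 and 33.0, on 5, 93 and 5 fragments, and those of Epb42 were 93.3, 38.6 and 41.1. Bcam, a laminin receptor that epithelia also use, was the list's only lowered member, on 2, 161 and 1 fragments and at folds of 0.180, 0.448 and 0.0713. At the promoter alone this list had a higher E13.5 median, 4.54, with Ermap at 48.0, Kel at 43.7, Epb42 at 38.6 and Cd47 at 37.2. Other promoters of the list were at least 2-fold lower at E13.5. These were Dmtn at 0.281, Bcam at 0.311, Add3 at 0.393, Ank1 at 0.401, and Add2, which was the lowest.

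Of 12 receptors and signalling genes, 3 were raised, and 1 of the 10 that passed the count filter with promoters only. Epor, the receptor for erythropoietin, stood at 79.6, 96.5 and 138 CPM and at folds of 4.04, 4.90 and 7.63. Tspan33, a tetraspanin of erythroid cells, was at 3.01, 4.14 and 5.87, and Cish, an inhibitor of cytokine signalling, was at 3.41, 2.83 and 2.54. Jak2, the kinase that Epor activates, was at 2.02, 1.59 and 2.02 and missed the call through E13.5. Kit, the stem cell factor receptor of early progenitors, was at 0.847, 1.13 and 1.17, and the list's median of 1.33 at E13.5 was the closest of the 8 to the 0.996 of all genes.

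Of 10 red cell enzymes, 5 were raised: Pklr, the red cell pyruvate kinase, Car2, Nt5c3, Prdx2 and Bpgm. With promoters only, 8 of the 10 passed the count filter, 2 were raised in place of 5, and the E13.5 median of these 8 was 1.55 where over the whole gene it was 2.83. Pklr stood at 54.0, 61.2 and 42.3 CPM and at folds of 3.94, 4.93 and 3.43. Car1 and Car2 are carbonic anhydrase genes whose starts or ends lie within 77.9 kb of each other, and only Car2 was raised, at folds of 4.31, 3.82 and 3.73 against 1.21, 1.05 and 0.470 for Car1. At the promoter alone the E13.5 folds were 4.37 (2.07 to 9.57) for Car1 and 2.58 (1.97 to 3.38) for Car2. The Car1 promoter held 1, 20 and 0 fragments of cluster 5 in stage order. Of 14 genes of cell cycle exit, organelle clearance and enucleation, 3 were raised. These were the ubiquitin ligases Trim10 and Trim58, at 8.97, 8.27 and 11.7 and at 7.48, 6.93 and 12.53, and the cell cycle inhibitor Cdkn2c, at 3.51, 2.30 and 2.89. The other 11 had folds between 0.751 for Hdac2 and 2.67 for Rac2 at E13.5.

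The globin genes gave the highest folds of any list and the lowest counts. All 10 measured were at least 2-fold higher at E13.5 and 8 were raised, while Hba-a1 and Hbb-bh2 were not, on 1 and 0 fragments at E12.5. With promoters only, 6 of the 10 passed the count filter and 4 of these were raised, where 5 of the same 6 were over the whole gene. Of the 4 that did not pass, Hba-x and Hbb-bh1 had promoter folds of 25.4, 3.29 and 2.57 and of 8.48, 3.23 and 9.24, on 1 fragment each in the latest library. Hbb-bs, an adult beta globin, stood at 30.8, 44.2 and 48.0 CPM against 0.962, 0.934 and 0.979, on 12, 381 and 17 fragments. Its fold at E13.5, 47.3 (32.2 to 72.1), was the highest of all genes raised. Hba-a1 and Hba-a2, Hbb-bs and Hbb-bt, and Hbq1a and Hbq1b are near-identical copies, and fragments that map to both members of such a pair cannot be assigned with certainty, so the split between them is uncertain.

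The embryonic globins Hba-x and Hbb-y, used by primitive erythroblasts, were lower in the later libraries. Hba-x stood at 38.5, 7.88 and 5.64 CPM, on 15, 68 and 2 fragments. Hbb-y stood at 46.2, 9.16 and 5.64 CPM, on 18, 79 and 2 fragments. Both were highest in E12.5, and the latest library held 0.146 of the earliest's CPM for Hba-x (0.0162 to 0.630) and 0.122 for Hbb-y (0.0137 to 0.510). Without the deepest nucleus of each library these values were 0.0759 and 0.0632, and that of Hbb-y was 0.225 as a mean over nuclei. The Hbb-y promoter alone held 6, 17 and 0 fragments in stage order. For Hbb-bh1, the other embryonic globin counted here, the E15.5 over E12.5 ratio was 0.732, and 0.320 as a mean over nuclei. Its promoter alone held 1, 25 and 1 fragments in stage order. Of the embryonic globin fragments at E12.5 and E15.5, few lay in Hbb-bh1. A fall as large as that of Hba-x and Hbb-y was therefore not shown for Hbb-bh1 and could not be judged. For Hbb-bs the E15.5 over E12.5 ratio was 1.56 (0.700 to 3.57) and for Hbb-bt 1.95 (0.812 to 5.01). Taking Hba-x, Hbb-y and Hbb-bh1 together, embryonic globins made up 36 of 61 fragments over embryonic and adult alpha and beta globins at E12.5, or 59.0% (45.7 to 71.4%). The share was 20.3% (17.9 to 22.7%) in the E13.5 library and 12.8% (4.83 to 25.7%), or 6 of 47 fragments, in the E15.5 one. At E12.5 these fragments lay in 4 of 10 nuclei, and 18 of the 36 lay in a single nucleus. None of the 4 belonged to the linked pair. At E13.5, 92 of 166 nuclei had fragments in both kinds of globin, 58 only in adult ones, 4 only in embryonic ones and 12 in neither.

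**Figure D3:**
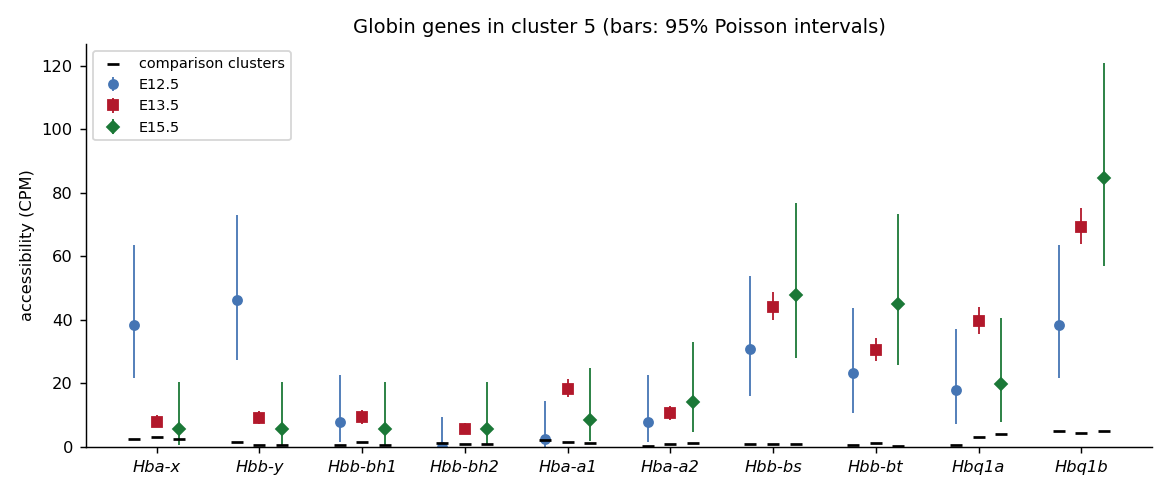
Accessibility in CPM (y axis) of each globin gene (x axis) in cluster 5, with 1 symbol per library, bars for the exact Poisson 95% interval and black dashes for the comparison clusters of the same library. Hba-x and Hbb-y were highest in E12.5, and the adult genes Hbb-bs and Hbb-bt were at 23.1 to 48.0 CPM in all 3 libraries.

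Among raised genes with at least 20 fragments in the E12.5 and E15.5 sums together, those with the largest E15.5 over E12.5 ratio included Kel, at 3.89 (1.96 to 8.43), Gm6899 and Gm9945, both at 3.16 (1.36 to 8.16), and Lsm7, at 2.96 (1.53 to 6.09). The lowest ratios after Hbb-y were those of Epb42, 0.359 (0.190 to 0.641), Slfn14, 0.462 (0.175 to 1.11), Aqp8, 0.503 (0.223 to 1.07), and Rhag, 0.531 (0.267 to 1.01). Slfn14 was at 0.759 without the deepest nucleus of each library and at 0.732 with promoters only, and Gm9945 was at 1.62 as a mean over nuclei. These are extremes by the rule that chose them, each rests on 10 nuclei per stage, and stage cannot be told apart from library. The summed share of all 119 erythroid genes was 1.34%, 1.54% and 1.73% of gene fragments in stage order, against 0.648%, 0.661% and 0.666% in the comparison clusters.

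Genes outside the lists with the highest folds at E13.5 among those raised were Gm2174, at 14.7, Ackr1, a chemokine-binding receptor of the red cell surface, at 12.4, and Cldn13, a claudin, on 301 fragments. Ackr1 stood at 43.7, 55.1 and 70.5 CPM against 7.46, 4.44 and 4.63, and its span overlaps Cadm3. At the other end, the 10 lowered genes with the lowest fold at E13.5 were led by Sox11, a factor of neural and mesenchymal progenitors, at 12.8, 4.41 and 14.1 CPM against 64.5, 66.0 and 69.3 (E13.5 fold 0.0667, 0.0471 to 0.0919). Nr2f2 and Sox9, factors of mesenchyme, vessels and cartilage, were at 0.127 and 0.132, and Hoxb4 and Hoxa11, patterning genes of the trunk and limb, were at 0.106 and 0.113. Ccn1, Prrg3, Adamts1 and Kctd15 were between 0.0845 and 0.135. Ccdc105, also among the 10, had no cluster 5 fragment at E12.5 or E15.5 and Adamts1 had none at E12.5, and their folds there are limits set by a floor of 3 fragments. The other 8 rest on 1 to 5 fragments at E12.5 and 1 to 8 at E15.5.

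Markers of mesenchyme and neural progenitors were mostly lower in cluster 5, and most markers of other cell types were not called in either direction. None of 10 white blood cell markers and none of 8 endothelial markers passed the 2-fold call in either direction at E13.5, with medians of 0.816 and 0.758, and both defining white blood genes, Ptprc and Spi1, stood at 0.808 and 1.23. The summed level of the white blood list was 396, 413 and 355 CPM in cluster 5 and 545, 510 and 462 CPM in the comparison clusters. Of 7 hepatocyte markers tested, none was higher and 2 were at least 2-fold lower at E13.5, among them Alb, at 0.404. Of 7 mesenchyme markers 5, and of 6 neural progenitor markers 5, were at least 2-fold lower at E13.5, as were 2 of 7 neuron, 3 of 7 muscle and 1 of 6 epithelial markers, beside 11.4% of all genes. The endothelial list had a median of 1.19 at E12.5 and the neuron list one of 1.05 at E15.5. The deepest cluster 5 nucleus at E15.5, with 41.6% of its fragments, carried 676 CPM over the neuron markers, where the cluster summed to 415. Gp9, a platelet glycoprotein, was the only raised gene among the megakaryocyte markers (2.85, 6.46 and 5.28), while Itga2b, the defining gene of that lineage, was at 0.598, 0.880 and 0.463. Col1a1 and Col1a2, collagens of mesenchyme, were at 1.93 and 1.56 at E15.5 against 0.517 and 0.331 at E13.5. The mesenchyme list as a whole went the other way at E15.5, with a median of 0.462 and a sum of 302 CPM against 391. The deepest nucleus of cluster 5 at E15.5 carried 732 CPM over the mesenchyme markers, and its part in the E15.5 values was not tested.

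Within the cluster the erythroid share fell with depth. At E13.5 it ranged from 0.749% to 3.22% of gene fragments, with a median of 1.72%, and 133 of 166 nuclei lay above the highest comparison nucleus, as did 8 of 10 at E12.5 and 9 of 10 at E15.5. The 56 shallowest nuclei at E13.5 had a median share of 2.07%, the 55 in the middle 1.96% and the 55 deepest, with at least 93704 fragments, 1.24%. In the same order their share of fragments at start sites was 21.7%, 18.4% and 7.54%. The fold of Gata1 was 19.6, 19.3 and 11.3, that of Alas2 12.1, 8.42 and 4.66 and that of Hbb-bs 109, 63.0 and 26.4, so the deepest nuclei were lower in all 3 and still above the comparison clusters. Sptb varied least, at 3.06, 3.68 and 2.90. Across the 166 nuclei, Pearson's r was -0.57 between log10 depth and the erythroid share and 0.72 between the share at start sites and the erythroid share, a description over nuclei of 1 library. The part of depth and of the start-site share in these values was not tested.

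**Figure D4:**
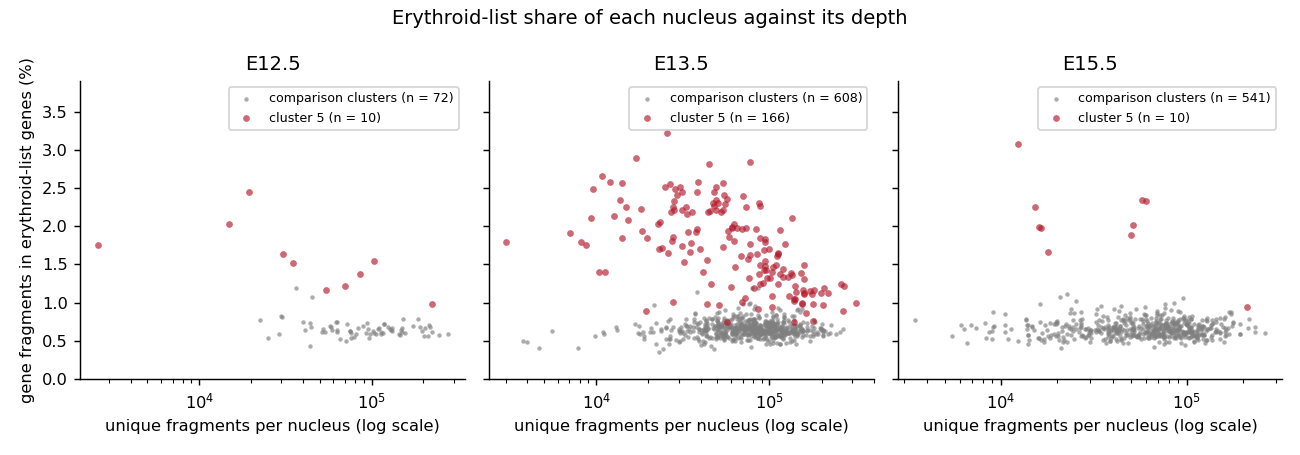
Share of gene fragments that fell in the 119 erythroid genes (y axis, percent) against unique fragments per nucleus (x axis, log scale), with 1 panel per library, red points for cluster 5 and grey points for the comparison clusters. Of cluster 5, 8 of 10, 133 of 166 and 9 of 10 nuclei lie above the highest grey point of their panel, and the deepest nucleus of each library lies within the grey range.

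Summed over its nuclei, the chromatin of cluster 5 was more concentrated at transcription start sites. The share of fragments there was 10.4%, 12.9% and 17.7% in cluster 5 and 7.45%, 9.40% and 11.1% in the comparison clusters, higher in 3 of 3 libraries. Fragments over 2 kb from any start made up 69.5%, 65.3% and 59.9% against 74.6%, 71.2% and 69.7%, lower in 3 of 3. Without the deepest nucleus the start-site share of cluster 5 was 12.1% at E12.5 and 23.3% at E15.5 and its distal share was 52.1% at E15.5, while without cluster 3 the E12.5 comparison values were 9.01% and 72.1%. Enrichment of insertions at start sites over their flanks was 14.4, 17.3 and 26.6 against 9.79, 12.504 and 17.1. For both shares the exact sign-flip permutation test over the 3 libraries, two-sided, gave p = 0.25, the smallest it allows with 3 libraries. The nucleosome-free share differed by 0.452, -3.51 and 0.394 percentage points (cluster 5 minus comparison) (exact sign-flip permutation test, two-sided, p = 1), and without the deepest nucleus the E15.5 difference was 2.97. Read pairs per fragment were lower in 3 of 3 libraries, at 2.14, 2.54 and 2.47 against 2.49, 2.77 and 2.71, but without the deepest nucleus the E15.5 value rose to 3.02. The mitochondrial share of read pairs was 0.831%, 1.01% and 1.54% against 0.656%, 0.699% and 0.615%, and at E12.5 it was 1.13% without the deepest nucleus and the comparison value was 0.814% without cluster 3. Positions covered by 3 or more fragments of a nucleus, after thinning to 20000 fragments, numbered 23, 48 and 98 in the median of the 7, 145 and 5 nuclei deep enough, against 5.5, 8 and 12 in the comparison clusters.

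Distal chromatin was examined in 500 bp windows at least 2 kb from every annotated start. Of 109408 windows with enough insertions at E13.5, 21917 (20%) were at least 4-fold higher in cluster 5 and are called open. They were chosen at E13.5 and held 5.54% of the insertions of cluster 5 there, against 0.595% of those of the comparison clusters. At E12.5 and E15.5, which the choice of windows did not use, they held 3.49% against 0.626% and 6.80% against 0.631%, which are folds of 5.58 (5.51 to 5.64) and 10.8 (10.7 to 10.9). The nuclei of those libraries were placed in cluster 5 by their own accessibility, clustered together with E13.5. These folds therefore describe the cluster and do not test it. Singly many could not be judged in those libraries, as 10577 and 9327 had no cluster 5 insertion, and 48.9% and 56.7% were at least 2-fold higher. The share at least 2-fold higher over all windows tested is not given for these libraries. The 48.9% and 56.7% therefore have no background beside them. Both the windows and the genes called raised or lowered rest on the same E13.5 fragments, so their closeness is in part given by the calls. An open window lay within 50 kb of the start of 93.2% of the 411 raised genes, 13.46% of the lowered genes and 45.1% of all genes tested.

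The open windows more often held the core motif of GATA factors. AGATAA was searched on both strands within each window, and 40.1% of open windows held it (39.4 to 40.7%), against 23.2% of all windows tested and 29.8% of all distal windows of the genome. Open windows were less rich in G and C (median 46.4% against 50.4% of bases), and within each of 5 bands of G and C content the share was higher in open windows, for example 37.6% against 23.7% of other tested windows between 45 and 50%. A CTG followed after 9 bases by AGATAA was present in 1.78% against 0.796% of all tested windows and 0.632% of all distal windows. These matches are a subset of those of AGATAA, which numbered 0.529 against 0.280 per window in open and all tested windows. Other spacings of CTG and AGATAA were not searched. The E-box CANNTG was present in 94.3% of open windows, 94.5% of all tested and 90.1% of all distal windows. The CACACCC motif of Klf1 stood at 16.1%, close to the 15.7% of tested windows and above the 7.27% of all distal windows. The core shared by NF-E2 and AP-1, TGACTCA, stood at 11.9% against 10.1% and 7.41%. In RefSeq promoters, 250 bases before to 50 after the start, AGATAA was present in 14.2% of 394 promoters of raised genes (10.9 to 18.1%), 7.97% of 17409 promoters of genes tested and 11.2% of all 32851. A match is a description of the letters and not of binding.

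The sequences that follow are the 150 bases with the most cluster 5 insertions within open windows, shown because they are the highest windows near Gata1 and Alas2 and, of the 5 windows with the highest folds, the 2 whose core holds AGATAA. They are read on the forward strand of GRCm38 (mm10), with AGATAA, or TTATCT where the match is on the other strand, in capitals. The Gata1 window, chrX:7971501-7972000, lies in an intron by the full annotated span of Gata1, 6.32 kb from the outer end taken as its start. For a transcript that starts further in, the window could lie upstream. The core of this window is chrX:7971501-7971650. The Alas2 window, chrX:150549501-150550000, lies in an intron of Alas2, 2.38 kb from the start, where Apex2 overlaps, and its core is chrX:150549745-150549894. The Rnf145 window, chr11:44513001-44513500, is intergenic, 5.71 kb from the start of that ubiquitin ligase gene, with its core at chr11:44513164-44513313. The Tusc1 window, chr4:93556501-93557000, is intergenic and 221 kb from the nearest start of a gene kept, with its core at chr4:93556502-93556651. Here and below, intergenic means outside annotated exons and outside the spans of the protein-coding genes kept. Distances to a start are to the outer ends of those spans, and starts of other transcripts and genes were left out of them.
Gata1 intron: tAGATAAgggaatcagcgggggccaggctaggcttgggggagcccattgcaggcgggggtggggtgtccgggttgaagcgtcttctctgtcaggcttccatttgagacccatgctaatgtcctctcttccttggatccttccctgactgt
Alas2 intron: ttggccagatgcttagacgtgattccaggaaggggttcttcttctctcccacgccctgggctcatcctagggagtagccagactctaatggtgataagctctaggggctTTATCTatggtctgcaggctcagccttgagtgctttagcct
Rnf145 intergenic: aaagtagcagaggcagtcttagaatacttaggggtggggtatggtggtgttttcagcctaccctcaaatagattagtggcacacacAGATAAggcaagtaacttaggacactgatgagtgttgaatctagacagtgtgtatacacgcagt
Tusc1 intergenic: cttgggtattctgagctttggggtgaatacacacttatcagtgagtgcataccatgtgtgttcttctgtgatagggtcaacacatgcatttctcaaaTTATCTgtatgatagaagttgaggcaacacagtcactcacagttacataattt

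At E13.5 the Gata1 window held 175 insertions of cluster 5 and 9 of the comparison clusters, or 6.71 and 0.0869 per 1000000, a fold of 77.2 (39.7 to 172), while E12.5 had 1 and 3 insertions and E15.5 had 2 and 2. The Alas2 window held 250 and 18, a fold of 55.1 (34.2 to 94.6), at E15.5 14 and 8, a fold of 131 (51.1 to 359), and at E12.5 only 2 and 6, with an interval of the fold from 0.395 to 22.4. The Rnf145 window held 149 and 3, a ratio of 197 (66.2 to 967), and was also higher at E12.5, with 3 and 5 insertions, and at E15.5, with 16 and 8. The Tusc1 window held 110 and 1, the highest ratio of the open windows (437, 76.8 to 17406), and 0 and 2 insertions at E12.5. The other windows with the highest ratios were intergenic ones nearest to Ezr, Cmah and Hbb-bt, on 81, 62 and 51 insertions against 1 each. Their folds, 322, 246 and 203, were above that of the Rnf145 window, and none of these 3 holds AGATAA in its 150 base core, so the printed cores are those with the motif and not a sample of the highest windows. Near Tal1 the highest window, chr4:115096001-115096500, was intergenic, nearest to the start of Pdzk1ip1, with 20, 506 and 25 insertions and folds of 60.0, 20.5 and 24.2. In an intron of Sptb, chr12:76674001-76674500 held 15, 303 and 16 insertions at folds of 180, 80.2 and 74.6. Neither of these 2 held AGATAA in its 150 base core. Within 50 kb of Klf1 the highest open window had a fold of only 4.13 (2.29 to 7.45), in an intron of Syce2.

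Klf1 was open at its promoter, which the search of windows at least 2 kb from a start had left out. The promoters of the other markers were also higher in cluster 5 at E13.5. Their folds were 38.6 for Hbb-bt, 7.91 for Alas2, 5.12 for Gata1, 4.97 for Tal1 and 4.31 for Sptb. The Klf1 promoter alone stood at 150, 224 and 330 CPM (per 1000000 promoter fragments) against 24.2, 20.8 and 11.04. Its folds were 6.22, 10.8 and 29.9, where the gene body with upstream sequence gave 3.56, 3.77 and 6.56. The 250 bases before the start in RefSeq, chr8:84901732-84901981 on the forward strand of GRCm38, are shown because the promoter carried the higher fold, with CACACCC, the motif Klf1 itself binds, in capitals. This motif is present in 11.7% of promoters of raised genes (8.68 to 15.3%) and 8.57% of promoters of genes tested.
Klf1 promoter: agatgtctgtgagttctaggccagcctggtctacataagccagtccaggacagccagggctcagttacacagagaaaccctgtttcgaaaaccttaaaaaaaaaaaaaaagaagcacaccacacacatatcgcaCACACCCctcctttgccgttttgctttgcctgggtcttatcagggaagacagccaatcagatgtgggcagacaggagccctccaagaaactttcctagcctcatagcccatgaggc

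In bins of 250 bp around Gata1, the highest cluster 5 values lay 6.625 kb into the gene (7.82 insertions per 1000000 against 0.154), 10.125 kb into it (6.48 against 0.0772) and 15.375 kb before it (5.71 against 0.0579). Around Alas2 the highest bin lay 2.375 kb into the gene (5.90 against 0.0772). At Klf1 the bin 0.625 kb before the start had 11.1 against 0.280 insertions per 1000000, while the higher bin 6.625 kb into the flank, 15.98 against 5.92, was accessible in the comparison clusters too. These bins of Gata1 and Alas2 held under 0.2 insertions per 1000000 in the comparison clusters, and the tallest Klf1 bin before the start lies upstream of the bases printed above. At the outer end of the annotated span of Gata1, taken as its start, little signal was found. The promoter fold there, 5.12 (1.54 to 19.4), rested on 9 fragments. Other transcript starts of Gata1 were not examined, so whether the bin 10.125 kb into the span lies at a promoter was not tested.

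**Figure D5:**
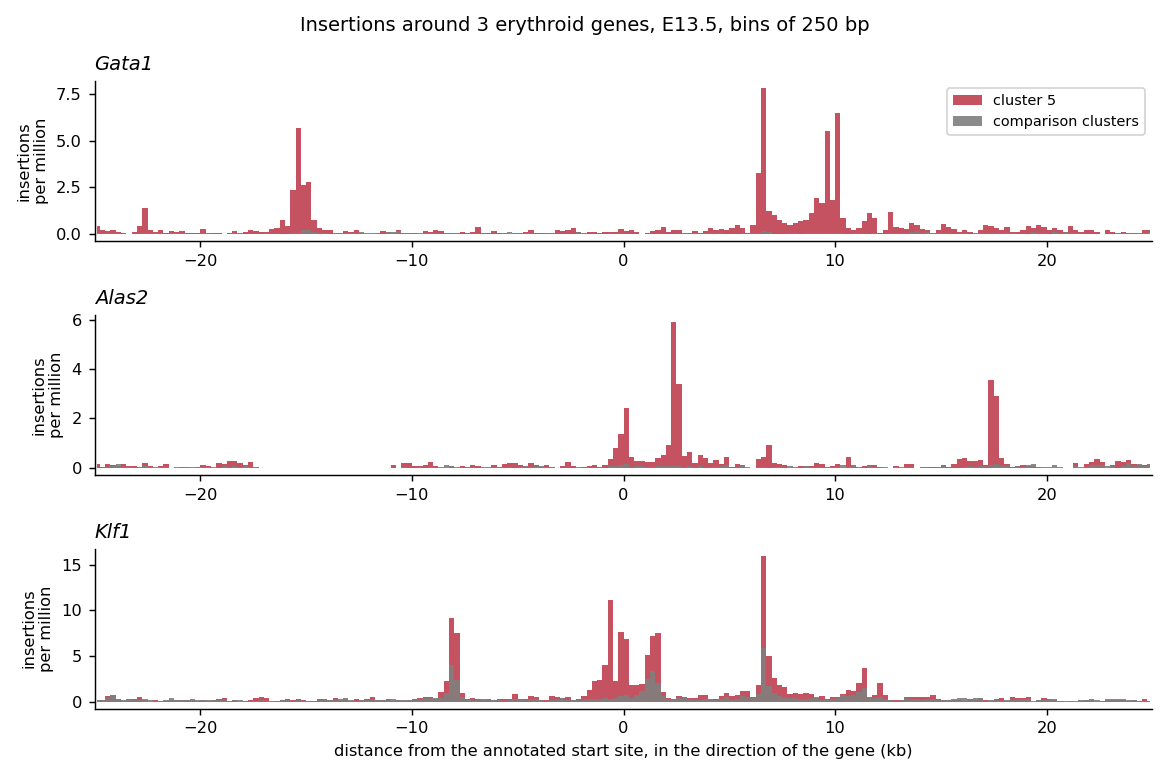
Tn5 insertions per 1000000 (y axis) in bins of 250 bp by distance from the annotated start of Gata1, Alas2 and Klf1 (x axis, kb, in the direction of the gene) at E13.5, red for cluster 5 and grey for the comparison clusters. The peaks of Gata1 and Alas2 are nearly all red, while Klf1 lies among peaks that are partly grey.

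A second erythroid cluster, number 11, held 1, 35 and 7 nuclei and was not part of the comparison. At E13.5 its level was 98.3 CPM (72.0 to 131) against 82.1 in cluster 5 for Gata1 and 68.4 (46.8 to 96.6) against 55.4 for Alas2, both within the interval. For Klf1 it was 158 (124 to 199) against 102. Tal1 stood at 385 CPM against 135 and Sptb at 306 against 461. Hbb-bs stood at 4.28 CPM (0.518 to 15.4) against 44.2, on 2 fragments. Hbb-bt stood at 19.2 CPM (8.80 to 36.5, 9 fragments) against 30.5, within the interval, and at E15.5 at 59.6 (19.4 to 139, 5 fragments) against 45.1. Alas2 went the other way at E15.5, at 35.8 CPM (7.38 to 105, 3 fragments) against 102. Gata1 and Klf1 stood there at 95.4 against 84.6 and 227 against 158.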

How the data were processed

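snATAC-seq fragments of 3 libraries were analysed. The authors deposited, per library, unique fragments with barcodes and the count of read pairs behind each, made with Cell Ranger ATAC 2.0.0 on mm10, which shifts ends for Tn5 and removes duplicates, and a table of nuclei with cluster numbers and count tallies. Of its columns, 17 were not used. Per the study's methods, peak matrices on ENCODE peaks were integrated with the spatial data by reciprocal LSI and Harmony, and the clusters came from that integration. The clustering resolution was not given in the sources used here. Libraries held 9402554, 87687839 and 53120243 fragments in stage order.

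Fragments were summed per cluster and library over 21593 protein-coding GENCODE vM21 genes (spans over 500 kb and Pcdh and Ugt genes left out) and scaled to CPM. Overlapping genes share fragments. The start and promoter of a gene were set at the outer end of its annotated span, and promoters at its other transcript starts were not counted. Genes tested had at least 30 fragments in cluster 5 or, at its depth, in the comparison clusters at E13.5, windows at least 20 insertions. Sums of 0 were set to a floor of 3 counts, and the resulting limit was used only where it lay away from 1. Intervals are exact (Poisson, Clopper-Pearson or conditional binomial). Genes and windows of cluster 5 were not tested against the rest, since the clusters came from these fragments, and fragment shares were compared within libraries by an exact sign-flip permutation test. Named genes were the markers, the globins, in each list the 4 with the highest smallest fold and the 2 with the lowest E13.5 fold, the 10 most extreme raised and lowered genes, the 5 most extreme stage ratios each way, the 5 highest windows and the best window within 50 kb of each marker. Other genes named were chosen after their values were seen, and some results that the rule picks are not reported here. Members, lists and rules were chosen with earlier results of these data known. Python 3.11.15, numpy 2.4.6, scipy 1.17.1 and pandas 2.3.3 were used.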

Additional observations from a re-analysis of the deposited data

Results flagged for a closer look

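Barcodes with at least 1000 fragments that the deposited table leaves out carried erythroid signal at E12.5. Over the 36 such barcodes, 1.01% of gene fragments (0.959 to 1.05%) lay in the 119 erythroid genes, between the 1.34% of cluster 5 and the 0.648% of the comparison clusters, and 3.35% of their insertions fell in the open distal windows, against 3.49% in cluster 5 and 0.626% in the comparison clusters. At E13.5 the 546 such barcodes gave 0.673% against 0.661% in the comparison clusters, and at E15.5 the share was 0.628% against 0.666%. Their share of insertions in the open windows was 0.816% against 0.595% at E13.5 and 0.698% against 0.631% at E15.5. The source of these fragments was not tested.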

How the results depend on the processing

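Of 325 alternatives, 287 were labelled the same, by rules that differ between results. Counts had to stay within a factor of 1.5, and quality differences only had to keep their sign. List medians and marker folds had to stay within 1 standard deviation over the libraries. Motif shares and stage ratios had to stay within their interval. The counts of raised and lowered genes were 1158 and 1730 at a fold of 1.5, 50 and 23 at a fold of 4, and 222 were raised with promoters only, 129 of them shared with the 411, while 528 were lowered, 119 of them shared with the 609. Leaving out 1 library in turn gave 486 to 700 raised and 996 to 1320 lowered genes, highest without E12.5 for the raised and without E13.5 for the lowered, where fewer libraries have to pass. With promoters only, fewer members passed the count filter, and raised members were 4 of 6 globins, 7 of 22 transcription factors, 2 of 15 heme, 1 of 6 iron, 1 of 10 receptor and 2 of 8 enzyme genes (5, 12, 9, 2, 3 and 5 of the same members over the whole gene), and the E13.5 medians were 1.91 for transcription factors, 1.70 for heme, 1.59 for iron, 4.54 for membrane, 1.55 for enzymes and 1.48 for cell cycle exit. The E15.5 over E12.5 ratio of Hbq1b was then 0.976 in place of 2.20. For promoters, the share raised and the median fold over all that passed the filter are not given. The promoter values of the lists therefore have no background beside them. The mean difference in nucleosome-free share turned to 0.273 percentage points when nuclei were thinned to 1000 fragments. Open windows numbered 45200 at a fold of 2, 8851 at 8 and 10862 with the minimum 2 times as high, and the share with the GATA motif was 31.8% at a fold of 2, 49.99% at 8, 64.7% for GATAA and 17.0% for AGATAAG. The alternative without the deepest nuclei was chosen after seeing the data, and 388 raised and 436 lowered genes were shared with it. The causes were not tested. Shares were compared within each library, and as each stage has 1 library no replicate block could be added and no test compares stages. At E12.5 and E15.5 the 10 nuclei each limit every single gene.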
